A study of Danio rerio with 18 samples.

Results

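The Hox genes are the homeobox transcription factor genes that stand in clusters on the chromosome, and the members described here are the rows of the count table whose zebrafish gene name gives a cluster letter from a to d, a paralog number and a copy letter a or b. By this rule 15 of the 25193 genes of the table were members. They come from 7 clusters: hoxa9a and hoxa13a from the hoxaa cluster, hoxa2b, hoxa9b, hoxa10b and hoxa13b from hoxab, hoxb1a and hoxb10a from hoxba, hoxb1b, hoxb6b and hoxb8b from hoxbb, hoxc1a and hoxc3a from hoxca, hoxc11b from hoxcb, and hoxd13a from hoxda. The table holds 47 Hox rows in all. For the other 32 the name table gives a human-style symbol with no copy letter (HOXB4, for example), so these rows cannot be placed in a cluster copy and are set beside the 15 members as a comparison group. All 15 members had counts in each of the 18 libraries, and all 15 passed the low-count filter in each of the 8 comparisons.

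RNA came from pooled, transgene-positive zebrafish embryos at 24 hours post fertilization (hpf), in 6 groups of 3 libraries. The AngioTag IP group is RNA pulled down with an HA antibody from embryos of the AngioTag line, and AngioTag input is the RNA of the whole embryos before the pull-down. The RiboTag IP and RiboTag input groups are the same pair from the RiboTag line, which the series describes as the whole-embryo translatome. For FACS sorted, AngioTag embryos were dissociated and their GFP-positive cells, the endothelium, were collected on a cell sorter. FACS total is the whole-embryo RNA that goes with it, from dissociated embryos, whereas AngioTag input came from lysed embryos. What is known of the study beyond its labels is that the HA tag sits on a ribosomal protein in both lines, so that the IP groups hold ribosome-bound RNA, and that the kdrl promoter drives it in AngioTag. Cells other than endothelium in which that promoter is active would carry it too. Whether samples 1 to 3 of a group came from different pools is not stated, so p-values measure only the spread between these samples.

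Vertebrate Hox genes are read along the body axis in the order in which they stand in their cluster. Genes with low paralog numbers act in the hindbrain and pharyngeal arches, those in the middle in the trunk, and those with high numbers in the tail and the fin or limb buds. The Hox proteins bind DNA together with Pbx and Meis partners, and retinoic acid, Wnt and Fgf signals, Cdx factors and the Polycomb and Trithorax chromatin complexes set where the clusters are active. Endothelial cells arise along much of the axis, and HOXA9 is known in mammals from blood and endothelial progenitors.

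Library totals were 18.3 to 49.5 M counts. The labels fitted their marker genes: of the endothelial markers tested, 15 of 15 were higher in the AngioTag IP than in AngioTag input and 15 of 16 were higher in FACS sorted than in FACS total, while 0 of 15 passed the test between RiboTag IP and RiboTag input (edgeR quasi-likelihood test, Benjamini-Hochberg adjusted p below 0.05; 2 of 15 at an unadjusted p below 0.05). Mitochondrial genes took 0.108 to 0.288% of counts in the IP libraries and 2.08 to 4.47% in all others. FACS sorted sample 3 stood apart from samples 1 and 2 in its summed erythroid, neural crest and pigment, and pectoral fin and lateral plate markers, given with the marker lists below. The part of either in the Hox values was not tested.

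Levels below are normalized CPM (counts scaled to a common library size), with scaling factors over all 18 libraries. They are not corrected for gene length, so a level is compared between libraries and not between genes. The 15 members together had 226, 359 and 280.2 CPM in AngioTag IP samples 1 to 3, against 312, 342 and 316 in AngioTag input. They had 208, 175 and 251 CPM in the RiboTag IP, against 295, 278 and 310.1 in RiboTag input. FACS sorted samples had 184, 234 and 184 CPM, against 201, 242 and 237 in FACS total. The summed Hox level was thus below all inputs in every RiboTag IP library, while the libraries of the AngioTag pair and of the sorting pair overlapped. The members spread most between samples of FACS sorted, with a median coefficient of variation of 41.7%, and 32.4% in FACS total. The median was 17.7% for the AngioTag IP, against 8.18% for its input. For the RiboTag IP it was 22.6%, against 11.2% for its input. Samples of a group did not vary gene by gene alone: AngioTag IP sample 2 was the highest of its group for 11 of the 15 members and sample 1 the lowest for 11, and RiboTag IP sample 2 was the lowest of its group for 10.

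The mean level was highest in AngioTag input for 7 members, in FACS sorted for 3 (hoxa9b, hoxb1a and hoxc11b), in RiboTag input for 3, in the AngioTag IP for hoxb1b and in the RiboTag IP for hoxa2b. It was lowest in FACS sorted for 8 members. The highest group mean was 7.52 times the lowest for hoxa13b, 6.85 times for hoxc1a, 5.91 times for hoxa13a, 5.29 times for hoxb6b and 4.63 times for hoxd13a, and between 2.10 and 2.50 times for the other 10.

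**Figure D1:**
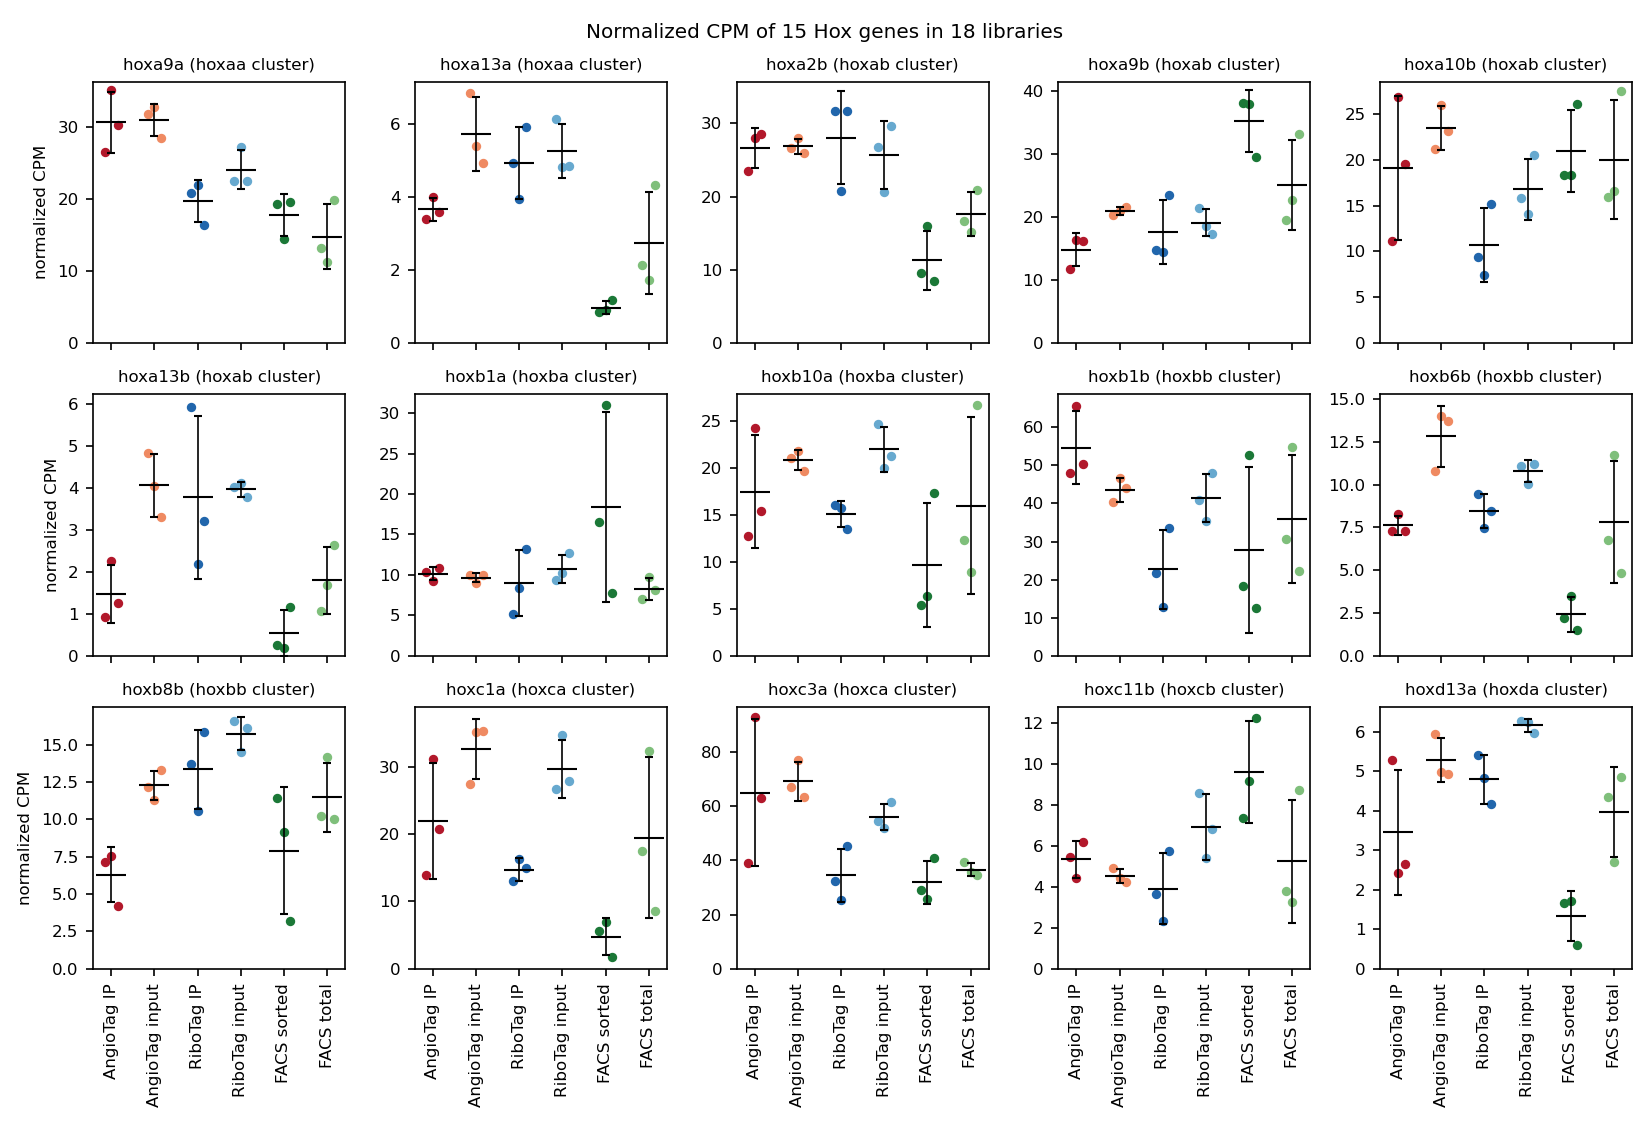
Normalized CPM (y axis, linear, from 0) of each of the 15 Hox genes in the 6 groups (x axis). Coloured points are libraries 1 to 3, black bars the mean ± SD (n = 3). The points of hoxb6b, hoxc1a, hoxd13a and hoxa13a in FACS sorted all lie below those of FACS total, and those of hoxb1b in the AngioTag IP all lie above those of AngioTag input and of the RiboTag IP.

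The first question of the design is which messages are held by the ribosomes of the endothelium. The AngioTag IP also held messages of marker genes of other cell types. Epidermis markers summed to 18636, 23203 and 16251 CPM in the AngioTag IP, against 21198, 26916 and 24143 in AngioTag input, with an overlap. Neural and muscle sums are given with the marker lists below. How much of the Hox level in the AngioTag IP came from such RNA was not tested. Of the 15 members, 0 were higher and 3 were lower in the AngioTag IP than in AngioTag input, by the edgeR quasi-likelihood test with Benjamini-Hochberg adjustment over all genes. Over all genes tested, 12.1% were higher and 11.9% lower. The members' median log2 fold change was -0.30, beside -0.031 over all genes, and 12 of 15 were below 0. With upper-quartile scaling, which moved the median of all genes by -0.20, 13 were below 0 (hoxb1a changed sign) and the calls over all genes were 1461 higher and 3078 lower, against 2170 and 2130 with the scaling used here. The 3 that passed were the trunk genes hoxb6b and hoxb8b of the hoxbb cluster and hoxa13b, a gene of the tail and fin bud. In bulk RNA, fewer cells of a type and less RNA per cell cannot be told apart.

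hoxb6b had 7.29, 8.26 and 7.32 CPM in AngioTag IP samples 1 to 3, against 10.8, 14 and 13.7 in AngioTag input. All 3 IP libraries lay below all 3 inputs, at a log2 fold change of -0.77 ± 0.20 (SE; edgeR adjusted p = 0.0216). hoxb8b, which stands in the same cluster, had 7.17, 7.54 and 4.16 CPM in the AngioTag IP, against 12.2, 11.3 and 13.3 in AngioTag input. Again the groups did not overlap, IP sample 3 being the lowest library, and the log2 fold change was -0.98 ± 0.25 (edgeR adjusted p = 0.0222). hoxa13b was a rare message, with 0.918, 2.25 and 1.26 CPM in the AngioTag IP, against 4.82, 4.03 and 3.31 in AngioTag input. Its groups did not overlap either, and its log2 fold change of -1.45 ± 0.38 was the largest fall of the 15 (edgeR adjusted p = 0.0237). These calls did not hold in every fit that left out 1 library. All 3 genes still passed without AngioTag IP sample 1 or without IP sample 2, and hoxb6b also passed without input sample 1. hoxb6b, hoxb8b and hoxa13b all missed the threshold without AngioTag IP sample 3 (edgeR adjusted p = 0.0776, 0.0569 and 0.0989), without input sample 2 (0.0991, 0.0590 and 0.0772) and without input sample 3 (0.117, 0.102 and 0.0640), and in 1 fit over all 18 libraries (0.121, 0.0754 and 0.0862). Without input sample 1, hoxb8b (0.0731) and hoxa13b (0.0982) missed it too. All 3 kept a negative fold change in each of these fits. Calls lower over all genes fell too, from 2130 to 871 without IP sample 3. They fell to 947, 1223 and 695 without input samples 1, 2 and 3, and to 1573 in the fit over all 18 libraries.

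The other 12 members did not pass the test in the AngioTag IP. The nearest was hoxa9b, a trunk and tail gene, with 11.8, 16.4 and 16.2 CPM in the AngioTag IP, against 20.4, 20.9 and 21.6 in AngioTag input. Its groups did not overlap, and its log2 fold change was -0.52 ± 0.18 (edgeR adjusted p = 0.0711). It was lower with DESeq2 (adjusted p = 0.0382) and, in edgeR, with the stricter filter (0.0471) and upper-quartile scaling (0.0157). hoxa13a, which passed with upper-quartile scaling alone (0.0314), had 3.38, 4.0 and 3.59 CPM in the AngioTag IP, against 6.86, 5.40 and 4.92 in AngioTag input, with no overlap and a log2 fold change of -0.66 ± 0.24 (edgeR adjusted p = 0.0804). hoxc1a, a gene that mammals have lost, had 13.9, 31.1 and 20.7 CPM in the AngioTag IP, against 27.4, 35.1 and 35.2 in AngioTag input. Its groups overlapped through IP sample 2, and it passed the test where same-numbered samples were paired (log2 fold change -0.65, edgeR adjusted p = 0.0394, against 0.146 without pairing) or without IP sample 2 (0.0218). hoxd13a passed without IP sample 1 (log2 fold change -1.07, edgeR adjusted p = 0.00804), and hoxb10a without IP sample 2 (-0.57, 0.0472). Without IP sample 1, the library with the fewest counts of its group, the members' median log2 fold change was -0.085 and 9 of 15 were below 0. Without IP sample 2 the median was -0.57 and 12 of 15 were below 0.

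The second view of the endothelium is the sorted cells. Of the 15 members, 0 were higher and 3 were lower in FACS sorted than in FACS total (edgeR quasi-likelihood test), beside 13.9% higher and 14.8% lower over all genes. The median log2 fold change of the members was -0.53, against -0.11 over all genes, and 10 of 15 were below 0. Leaving out 1 library at a time, the members' median lay between -0.68 (without sorted sample 2) and -0.27 (without sorted sample 3), with 9 to 11 of 15 below 0. Upper-quartile scaling shifted the all-gene median by -0.21, turned hoxa10b below 0 and called 2199 genes higher and 3657 lower, against 2678 and 2868. The 3 were hoxc1a, hoxb6b and hoxd13a. hoxb6b was thus the 1 member that passed the test in both views of the endothelium. In the RiboTag IP, the pull-down from whole embryos, its log2 fold change was -0.31, with every IP library below every input. The AngioTag fold change differed from the RiboTag one by -0.48, and between the AngioTag IP and the RiboTag IP it was -0.19. None of these 3 values of hoxb6b passed the edgeR test.

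hoxc1a had 5.62, 6.97 and 1.68 CPM in FACS sorted samples 1 to 3, against 17.5, 32.3 and 8.58 in FACS total. Sample 3 was the lowest of both groups, no sorted library reached any FACS total library, and the log2 fold change was -2.02 ± 0.60 (edgeR adjusted p = 0.0334). hoxb6b had 2.23, 3.52 and 1.52 CPM in FACS sorted, against 6.76, 11.7 and 4.86 in FACS total. It showed the same order of samples with no overlap, at a log2 fold change of -1.67 ± 0.46 (edgeR adjusted p = 0.0256). hoxd13a, which in mouse patterns the end of the limb, had 1.66, 1.73 and 0.609 CPM in FACS sorted, against 4.36, 2.69 and 4.86 in FACS total. Its highest sorted library lay below its lowest FACS total library, and its log2 fold change was -1.58 ± 0.49 (edgeR adjusted p = 0.0409). All 3 missed the threshold without FACS sorted sample 1 (edgeR adjusted p = 0.0847 for hoxc1a, 0.0927 for hoxb6b and 0.0871 for hoxd13a), sorted sample 3 (0.0677, 0.0713 and 0.0950), FACS total sample 1 (0.0642, 0.0576 and 0.124) or FACS total sample 2 (0.125, 0.110 and 0.0532), and hoxd13a also without FACS total sample 3 (0.0984). hoxd13a also missed it with RLE scaling (log2 fold change -1.48, edgeR adjusted p = 0.0558). All 3 fold changes stayed negative in these fits.

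The remaining members with paralog number 13 did not pass the test in sorted cells. hoxa13a had 0.844, 0.895 and 1.17 CPM in FACS sorted, against 2.13, 1.74 and 4.33 in FACS total. The groups did not overlap, and the log2 fold change was -1.47 ± 0.49 (edgeR adjusted p = 0.0515). hoxa13a was lower with DESeq2 (adjusted p = 0.0256) and, in edgeR, with upper-quartile scaling (0.0295), the stricter filter (0.0402) and all 18 libraries in 1 fit (0.00371). hoxa13b rested on 11, 3 and 46 raw counts in FACS sorted, against 54, 86 and 120 in FACS total, the lowest counts of any member. Sorted sample 3 overlapped FACS total, the log2 fold change was -1.64 ± 0.72 (edgeR adjusted p = 0.120), and without sorted sample 3 it was -2.82 (adjusted p = 0.0154). In 1 fit over all 18 libraries hoxa13b passed with every sample kept (log2 fold change -1.66, edgeR adjusted p = 0.0344).

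In the other direction, 5 members had a positive fold change in sorted cells, and none passed the test. hoxb1a, the hindbrain gene of the fourth rhombomere in zebrafish, had 16.6, 31.0 and 7.74 CPM in FACS sorted, against 7.04, 9.76 and 8.09 in FACS total. Samples 1 and 2 of FACS sorted lay above all FACS total libraries and sample 3 did not, with a log2 fold change of 1.18 ± 0.47 (edgeR adjusted p = 0.0917) that reached 1.67 without sorted sample 3 (adjusted p = 0.0105). hoxa9b had 38.1, 38.0 and 29.6 CPM in FACS sorted, against 19.5, 22.7 and 33.1 in FACS total. FACS total sample 3 overlapped the sorted libraries, and the log2 fold change was 0.50 ± 0.29 (edgeR adjusted p = 0.233). hoxc11b, a gene of the posterior trunk and tail, had 7.36, 9.21 and 12.3 CPM in FACS sorted, against 3.79, 3.26 and 8.73 in FACS total. FACS total sample 3 again lay among the sorted libraries, and without it the log2 fold change was 1.5 (edgeR adjusted p = 0.0208), against 0.89 ± 0.45 (0.173) with all samples. hoxa9a and hoxa10b had log2 fold changes of 0.28 ± 0.31 and 0.084 ± 0.32.

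**Figure D2:**
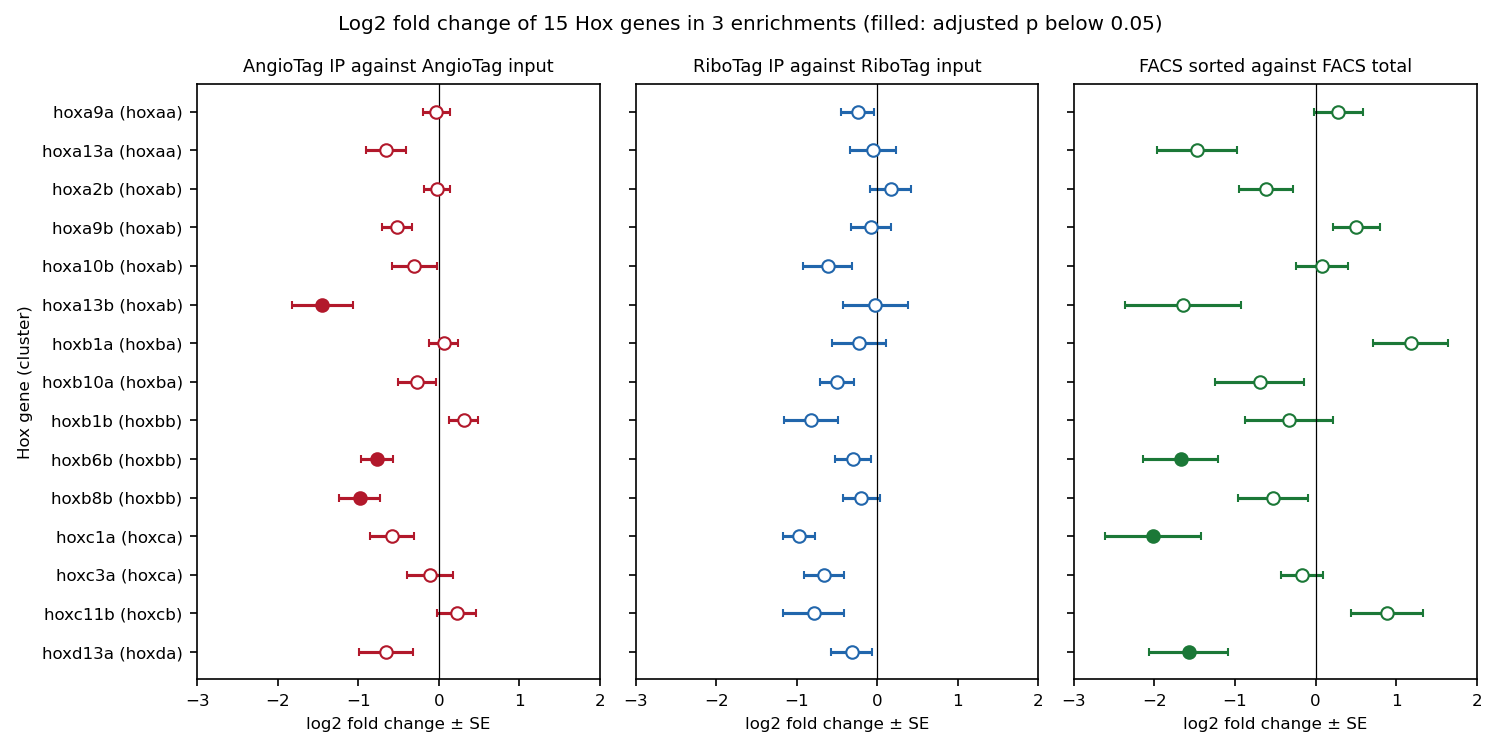
Log2 fold change ± SE (x axis) of each of the 15 Hox genes (y axis, with its cluster) in the AngioTag IP, the RiboTag IP and FACS sorted, each against its own whole-embryo RNA. Filled points have an edgeR adjusted p below 0.05: hoxb6b, hoxb8b and hoxa13b in the AngioTag IP, and hoxc1a, hoxb6b and hoxd13a in FACS sorted.

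The RiboTag pair sets ribosome-bound RNA of the embryo against total RNA. None of the 15 members passed the edgeR quasi-likelihood test (0 higher, 0 lower; at an unadjusted p below 0.05, 0 higher and 4 lower; DESeq2 called 0 higher and 1 lower), in a comparison that called 0.700% of all genes higher and 0.496% lower. These shares, 127 and 90 genes, turned on single libraries: without IP sample 1 the calls were 0 higher and 5 lower, without input sample 1, 2 or 3 they were 0 to 1 higher and 10 to 14 lower, without IP sample 2 they were 864 and 1014, and without IP sample 3 they were 408 and 214. Even so, 14 of 15 members had a fold change below 0, with a median of -0.31 on the log2 scale, against -0.047 over all genes, of which 9611 of 18134 were below 0. For 7 members every IP library lay below every input. The share of all genes that separated in this way was not computed, so the count of 7 has no background to be read against. hoxc1a, which had the smallest p, had 13, 16.3 and 14.9 CPM in the RiboTag IP, against 26.6, 34.6 and 27.9 in RiboTag input. The groups stood well apart, and the log2 fold change was -0.97 ± 0.20 (edgeR adjusted p = 0.0597), passing the test without IP sample 2 (0.0239) or IP sample 3 (0.0493). hoxc3a, of the same hoxca cluster and another gene that mammals lack, had 32.5, 25.5 and 45.2 CPM in the RiboTag IP, against 54.6, 52.0 and 61.5 in RiboTag input. hoxb1b, which acts early in hindbrain segmentation in zebrafish, had 21.8, 12.9 and 33.6 CPM in the RiboTag IP, against 40.9, 35.5 and 48.1 in RiboTag input. Neither gene's groups overlapped, at log2 fold changes of -0.66 ± 0.24 for hoxc3a (edgeR adjusted p = 0.199) and -0.83 ± 0.33 for hoxb1b (0.235).

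The same-numbered RiboTag IP and input samples varied together, and the fit that pairs them called 4 members lower: hoxc1a (log2 fold change -0.97, edgeR adjusted p = 0.00586), hoxb1b (-0.91, 0.0128), hoxc3a (-0.70, 0.0243) and hoxa10b (-0.66, 0.0430). In that fit 1306 genes of the whole table were higher and 1268 lower. The 1 member above 0 was hoxa2b, a gene that acts in the second pharyngeal arch in zebrafish. It had 31.7, 20.7 and 31.7 CPM in the RiboTag IP, against 26.8, 20.7 and 29.6 in RiboTag input, and a log2 fold change of 0.17 ± 0.25. Its libraries overlapped. Leaving out 1 library at a time, 11 to 14 of the 15 members stayed below 0. Among marker lists of the embryo, 12 of 14 neural markers, 9 of 10 muscle and somite markers and 4 of 6 tailbud and notochord markers were above 0 in the RiboTag IP, and 7 of 7 erythroid markers were below 0. None of these passed the edgeR test in either direction. At an unadjusted p below 0.05, 2 neural, 3 muscle and 1 tailbud or notochord markers were higher, and 1 muscle, 1 tailbud or notochord and 2 erythroid markers were lower. Their part in the Hox values was not tested.

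The AngioTag IP can also be set against the RiboTag IP, where both sides are pull-downs. Of the 15 members, 1 was higher and 1 was lower in the AngioTag IP (edgeR quasi-likelihood test), beside 9.86% higher and 8.76% lower over all genes. With upper-quartile scaling the calls over all genes were 1419 higher and 1989 lower, against 1685 and 1498, and the median of all genes moved by -0.14. Both members stand in the hoxbb cluster. hoxb1b had 47.9, 65.7 and 50.3 CPM in the AngioTag IP, against 21.8, 12.9 and 33.6 in the RiboTag IP. All 3 AngioTag libraries were higher, at a log2 fold change of 1.23 ± 0.35 (edgeR adjusted p = 0.0291). hoxb8b had 7.17, 7.54 and 4.16 CPM in the AngioTag IP, against 13.7, 10.6 and 15.8 in the RiboTag IP. All 3 AngioTag libraries were lower, at a log2 fold change of -1.12 ± 0.34 (edgeR adjusted p = 0.0402). hoxb1b missed the threshold without AngioTag IP sample 2 (adjusted p = 0.0920) or 3 (0.0769) and without RiboTag IP sample 1 (0.103) or 2 (0.0566), all from edgeR. hoxb8b missed it without AngioTag IP sample 1 (0.0552), 2 (0.0699) or 3 (0.224) and without RiboTag IP sample 1 (0.112) or 3 (0.0993). Among the rest, hoxc3a had 38.9, 93.2 and 63.2 CPM in the AngioTag IP, against 32.5, 25.5 and 45.2 in the RiboTag IP. AngioTag sample 1 overlapped the RiboTag libraries, and the log2 fold change of 0.88 ± 0.35 (edgeR adjusted p = 0.101) passed only without that sample (1.16, 0.0393) and in the fit over all 18 libraries (0.0181), in which hoxa9a passed as well (log2 fold change 0.64, adjusted p = 0.0464). This comparison and the 2 enrichments share IP libraries, so their values are not independent of each other.

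Whether the enrichments themselves differ was tested as the difference of 2 log2 fold changes over 12 libraries. For AngioTag minus RiboTag, none of the 15 members passed the edgeR test (0 higher, 0 lower; 2 higher and 2 lower at an unadjusted p below 0.05; DESeq2 called 1 higher), beside 4.46% higher and 3.53% lower over all genes. hoxb1b had the smallest p, with log2 enrichments of 0.31 ± 0.18 for AngioTag and -0.83 ± 0.33 for RiboTag. The difference was 1.12 ± 0.40 (edgeR adjusted p = 0.107), and with same-numbered samples paired it was 1.19 (edgeR adjusted p = 0.00655). Without pairing, hoxb1b passed with DESeq2 (1.16, adjusted p = 0.0465) and, in edgeR, without RiboTag IP sample 3 (0.0138), so the call depends on the fit. hoxa13b and hoxb8b had differences of -1.44 ± 0.58 (edgeR adjusted p = 0.150) and -0.81 ± 0.35 (0.181).

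For FACS minus AngioTag, none of the 15 passed either (0 higher, 0 lower by edgeR; 1 higher and 0 lower at an unadjusted p below 0.05; DESeq2 called 1 higher), beside 5.12% higher and 3.00% lower over all genes. hoxa9b came nearest, with a log2 fold change of 0.50 ± 0.29 by sorting and -0.52 ± 0.18 by pull-down. The difference was 1.01 ± 0.34 (edgeR adjusted p = 0.0797), and it passed without FACS total sample 3 (0.0289) and with RLE scaling (0.0438). RLE, the scaling of DESeq2, shifted the all-gene median by 0.16 and called 1371 genes higher and 409 lower, against 1031 and 605. hoxc1a differed by -1.45 ± 0.70 (edgeR adjusted p = 0.210) and hoxb1a by 1.09 ± 0.53 (0.212, or 0.0392 without FACS sorted sample 3). hoxb1b, the member with the largest positive value in the AngioTag IP, had a log2 fold change of -0.33 ± 0.55 in sorted cells. For FACS minus AngioTag it passed without FACS sorted sample 2 (-1.53, edgeR adjusted p = 0.04992). Its levels were 18.3, 52.6 and 12.4 CPM in FACS sorted, against 30.8, 54.8 and 22.4 in FACS total, with sample 2 the highest of both groups.

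The whole-embryo groups show how far the Hox levels differ before any enrichment. FACS total came from dissociated embryos and AngioTag input from lysed ones, so preparation differs between them. Its part in the Hox values was not tested. Between AngioTag input and RiboTag input, none of the 15 passed the edgeR test (0 higher, 0 lower; 3 higher and 2 lower at an unadjusted p below 0.05; DESeq2 called 0), beside 0.818% higher and 0.845% lower over all genes. hoxa9a had 31.8, 32.7 and 28.5 CPM in AngioTag input, against 22.5, 27.2 and 22.5 in RiboTag input, with no overlap and a log2 fold change of 0.39 ± 0.13 (edgeR adjusted p = 0.121). hoxa10b had 21.3, 26.0 and 23.2 CPM in AngioTag input, against 15.8, 14.1 and 20.5 in RiboTag input. Its log2 fold change was 0.51 ± 0.17 (0.129), and 0.71 without RiboTag input sample 3 (0.04997). hoxc11b had 4.94, 4.45 and 4.24 CPM in AngioTag input, against 8.60, 5.41 and 6.82 in RiboTag input, again with no overlap, and a log2 fold change of -0.59 ± 0.22 (edgeR adjusted p = 0.154).

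Between FACS total and AngioTag input, both whole-embryo RNA of the AngioTag line, 0 members were higher and 5 were lower (edgeR quasi-likelihood test), in a comparison that called 25.2% of all genes higher and 21.2% lower. hoxc3a had 39.4, 35.6 and 34.7 CPM in FACS total, against 67.2, 77.3 and 63.3 in AngioTag input. hoxa9a had 13.2, 11.2 and 19.9 CPM in FACS total, against 31.8, 32.7 and 28.5 in AngioTag input. For both genes all FACS total libraries were lower, with log2 fold changes of -1.03 ± 0.17 for hoxc3a (edgeR adjusted p = 0.00185) and -1.17 ± 0.25 for hoxa9a (0.00660), and both calls held in every fit that left out 1 library. hoxa2b, at 16.7, 15.1 and 20.9 CPM in FACS total, against 26.6, 28.0 and 26.0 in AngioTag input, changed by -0.71 ± 0.20 (edgeR adjusted p = 0.0181). hoxa13a had 2.13, 1.74 and 4.33 CPM in FACS total, against 6.86, 5.40 and 4.92 in AngioTag input, and its log2 fold change was -1.16 ± 0.38 (0.0365). hoxa13b had 1.06, 1.68 and 2.64 CPM in FACS total, against 4.82, 4.03 and 3.31 in AngioTag input, and its log2 fold change was -1.27 ± 0.37 (0.0234). None of these 3 genes had overlapping groups. Genes of the hoxaa and hoxab clusters, which hold 2 and 4 of the 15 members, make up 4 of the 5 calls. hoxa2b lost its call without AngioTag input sample 2 (edgeR adjusted p = 0.0712) or 3 (0.0593) or FACS total sample 1 (0.0681), hoxa13b without AngioTag input sample 1 (0.0735) or 2 (0.0633) or FACS total sample 1 (0.0699) or 2 (0.0617), and hoxa13a without any of AngioTag input samples 1 to 3 or FACS total samples 1 and 2 (0.0662 to 0.123). Without FACS total sample 2, hoxb1b (0.0169), hoxb6b (0.00752) and hoxc1a (0.00944) were called lower as well, and without FACS total sample 3, hoxa10b (0.00548), hoxb10a (0.000897) and hoxd13a (0.0441). Marker lists moved in the same comparison. Of 10 muscle and somite markers 2 were higher and 4 were lower (edgeR), with sums of 2171, 1345 and 4271 CPM in FACS total, against 10549, 14483 and 15634 in AngioTag input. Of 8 epidermis markers 0 were higher and 4 were lower, with sums of 8263, 8981 and 17553 CPM in FACS total, against 21198, 26916 and 24143 in AngioTag input. Of 14 neural markers 2 were higher and 9 were lower, and of 6 tailbud and notochord markers 1 was higher and 4 were lower. Their part in the Hox values was not tested. FACS total is the denominator of the sorting comparison, so the level of these genes there bears on each sorted fold change above; its part in them was not tested.

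**Figure D3:**
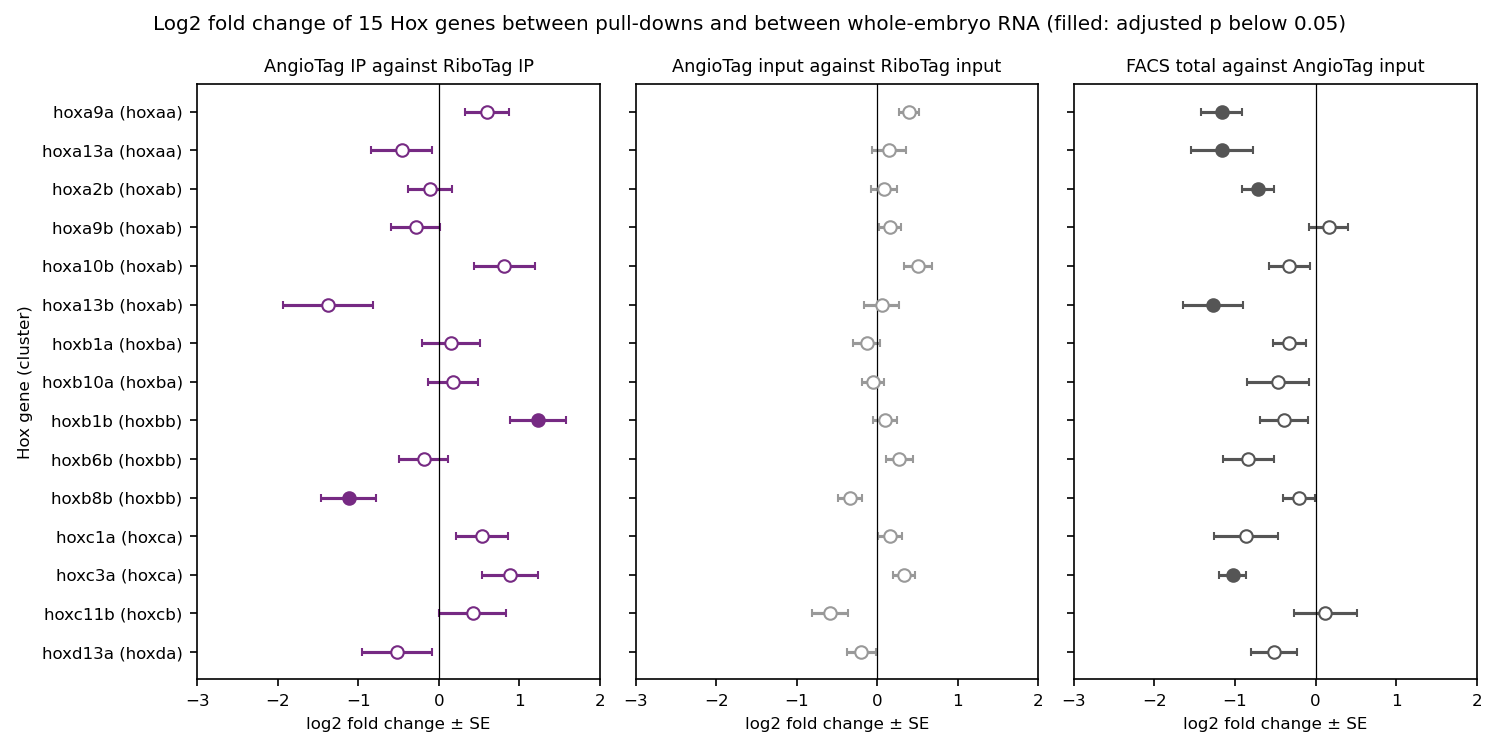
Log2 fold change ± SE (x axis) of each of the 15 Hox genes (y axis, with its cluster) in the AngioTag IP against the RiboTag IP and between the whole-embryo groups. Filled points have an edgeR adjusted p below 0.05: hoxb1b (higher) and hoxb8b (lower) between the pull-downs, none between the inputs, and hoxa9a, hoxa13a, hoxa2b, hoxa13b and hoxc3a (all lower) in FACS total against AngioTag input.

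Read along the clusters, the 3 members with paralog number 13 (hoxa13a, hoxa13b and hoxd13a) lay below 0 in both views of the endothelium, with log2 fold changes from -1.45 to -0.65 in the AngioTag IP and from -1.64 to -1.47 in FACS sorted. Of these, hoxa13b passed in the first and hoxd13a in the second. In the RiboTag IP the same 3 had values from -0.31 to -0.024. The 5 other posterior members (numbers 9 to 11) gave -0.52 to 0.22 in the AngioTag IP and -0.69 to 0.89 in FACS sorted, with 0 past the test. A fall in both views was not particular to number 13. Among the rows without a copy letter, the 3 with number 4 gave -1.71 to -0.98 in the AngioTag IP (3 lower by the edgeR test). In FACS sorted they gave -1.56 to -0.94 (1 lower). The 4 rows with number 5 and the 3 with number 12 lay below 0 in both views too, while the 3 with number 9 lay above 0 in FACS sorted. The trunk genes hoxb6b and hoxb8b summed to 14.5, 15.8 and 11.5 CPM in the AngioTag IP, against 22.9, 25.3 and 27.0 in AngioTag input, with no overlap. They summed to 13.6, 12.7 and 4.70 CPM in FACS sorted, against 17.0, 25.9 and 14.9 in FACS total, where every sorted library was lower too. Both genes had passed singly in the AngioTag IP, so their sum there adds no support. In FACS sorted hoxb6b had passed singly, while hoxb8b had not (log2 fold change -0.53) and its libraries overlapped those of FACS total. The sum in FACS sorted thus adds no support either. Rows without a copy letter did not all follow. In the AngioTag IP the 3 with number 6 gave -0.21 to 0.69 (1 higher). The 1 with number 7 gave 0.081, and the 2 with number 8 gave -1.29 to 0.27 (1 lower). In FACS sorted these gave -0.23 to 0.36, 0.40, and 0.40 to 0.56, with 0 past the test. The 5 anterior members (hoxb1a, hoxb1b, hoxc1a, hoxa2b and hoxc3a) summed to 135, 227 and 174 CPM in the AngioTag IP, against 172, 196 and 179 in AngioTag input, and to 79.3, 132 and 71.2 CPM in FACS sorted, against 111, 148 and 94.6 in FACS total. Both of these pairs overlapped. In the RiboTag IP the anterior sum was 104, 83.9 and 139 CPM, against 158, 153 and 179.8 in RiboTag input. The trunk sum was 23.1, 18.02 and 24.3 CPM in the RiboTag IP, against 27.7, 24.6 and 27.3 in RiboTag input. The sum of the 8 posterior members was 81.0, 72.9 and 87.7 CPM in the RiboTag IP, against 109, 100.4 and 103 in RiboTag input. In all 3 position classes every RiboTag IP library lay below every RiboTag input. These sums are built from the same 15 members, of which 14 were already below 0 there. How often sums of other genes separate in this way was not computed.

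The duplicated copies of a gene could be compared for 3 pairs. hoxb1a, the partner copy of hoxb1b, had 10.4, 9.22 and 10.9 CPM in the AngioTag IP, against 9.99, 9.0 and 9.96 in AngioTag input. With hoxb1b at 47.9, 65.7 and 50.3 CPM in the AngioTag IP, against 40.3, 46.6 and 44.1 in AngioTag input, the copies had log2 fold changes of 0.058 ± 0.18 (hoxb1a) and 0.31 ± 0.18 (hoxb1b) there, and of 1.18 ± 0.47 and -0.33 ± 0.55 in FACS sorted. hoxa9a had 26.6, 35.1 and 30.3 CPM in the AngioTag IP, against 31.8, 32.7 and 28.5 in AngioTag input, a log2 fold change of -0.033 ± 0.17 beside -0.52 ± 0.18 for hoxa9b. In FACS sorted hoxa9a had 19.3, 14.4 and 19.6 CPM, against 13.2, 11.2 and 19.9 in FACS total, and its fold change was positive like that of hoxa9b. hoxa13a and hoxa13b were below 0 in both views, as given above. No difference between copies was tested.

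Summed over its members, the hoxca cluster stood at 52.8, 124 and 83.9 CPM in the AngioTag IP, against 94.7, 112 and 98.5 in AngioTag input, and 45.5, 41.8 and 60.1 CPM in the RiboTag IP, against 81.2, 86.6 and 89.4 in RiboTag input. The RiboTag groups did not overlap, and the AngioTag groups did, through IP sample 2. The hoxbb sum was 31.9, 65.3 and 17.1 CPM in FACS sorted, against 47.8, 80.7 and 37.2 in FACS total, with sample 2 the highest of each group and an overlap between them. The hoxba cluster was read from hoxb1a and hoxb10a. The gene hoxb10a, which mammals have lost, had 12.7, 24.2 and 15.4 CPM in the AngioTag IP, against 21.0, 21.8 and 19.7 in AngioTag input, and 5.41, 6.33 and 17.3 CPM in FACS sorted, against 12.3, 8.92 and 26.6 in FACS total. Sample 3 was the highest of both sorting groups, and the groups overlapped in both of these pairs. In the RiboTag IP hoxb10a had 16.0, 15.8 and 13.5 CPM, against 24.7, 19.998 and 21.3 in RiboTag input, with no overlap. The hoxcb cluster was read from hoxc11b alone, with 5.45, 4.42 and 6.19 CPM in the AngioTag IP, against 4.94, 4.45 and 4.24 in AngioTag input, and 3.66, 2.33 and 5.76 CPM in the RiboTag IP, against 8.60, 5.41 and 6.82 in RiboTag input. Its groups overlapped in both pairs. The hoxda cluster was read from hoxd13a, with 5.28, 2.43 and 2.66 CPM in the AngioTag IP, against 5.94, 4.99 and 4.94 in AngioTag input, and 5.42, 4.82 and 4.17 CPM in the RiboTag IP, against 6.28, 6.25 and 5.97 in RiboTag input. IP sample 1 alone of the AngioTag IP libraries reached the AngioTag inputs, and the RiboTag groups did not overlap.

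Some members overlap other genes. In the RefSeq annotation of another assembly (GRCz12tu), 11 of the 15 members overlap at least 1 other annotated gene (all but hoxb1a, hoxb10a, hoxc11b and hoxd13a), so their counts could hold reads of another gene. Of these, 3 overlap another Hox gene: hoxb1b overlaps hoxb6b and hoxb5b, and hoxc3a spans hoxc9a, hoxc8a, hoxc6a, hoxc5a and hoxc4a. The libraries were stranded, but the use of strand in counting is not given in the sources used here. hoxb1b and hoxb6b had fold changes of opposite sign in the AngioTag IP against its input, 0.31 ± 0.18 and -0.77 ± 0.20. Both were below 0 in the RiboTag IP against its input (-0.83 and -0.31) and in FACS sorted against FACS total (-0.33 and -1.67). Whether the overlapping genes shared reads was not tested.

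Among the 32 Hox rows without a copy letter, 1 (3.1%) was higher and 10 (31%) were lower in the AngioTag IP than in AngioTag input. Over all genes 12.1% were higher and 11.9% lower. The median log2 fold change of the 32 was -0.33 (edgeR quasi-likelihood test). The largest falls were those of HOXC12 (ENSDARG00000070352), at 0, 0.232 and 0.110 CPM in the AngioTag IP, against 5.03, 1.88 and 3.38 in AngioTag input with a log2 fold change of -4.68 ± 0.70 fitted to 0, 9 and 4 raw counts in the IP, and of a second HOXC12 row (ENSDARG00000103133), at -2.79 ± 0.70. HOXC13 (ENSDARG00000070353) followed at -1.96 ± 0.25 and HOXB4 at -1.71 ± 0.27, and HOXB6 (ENSDARG00000010630) was the 1 row higher, at 0.69 ± 0.20. In FACS sorted, 1 of the 32 was higher than in FACS total and 4 were lower (HOXB5, HOXB13, HOXD4 and HOXC5), with a median of -0.20. These shares, 3.1% and 12.5%, lay below the 13.9% higher and 14.8% lower over all genes. In the RiboTag IP 0 of 32 passed the edgeR test in either direction (0 higher and 6 lower at an unadjusted p below 0.05; DESeq2 called 0 higher and 2 lower, and the edgeR fit that pairs same-numbered samples 0 higher and 6 lower), with a median of -0.40 and 29 of 32 below 0. That comparison called 0.700% of all genes higher and 0.496% lower by the edgeR test. The summed level of the 32 rows was 477, 449.6 and 511 CPM in the RiboTag IP, against 606, 628 and 606 in RiboTag input, again with every IP library below every input. No background for this separation was computed. The difference of enrichments AngioTag minus RiboTag passed the edgeR test for 3 of the 32, HOXB4 (-1.79 ± 0.47), HOXC12 (ENSDARG00000070352, -3.51 ± 1.01) and HOXC13 (-1.86 ± 0.31), all lower. Leaving out 1 library at a time, the 32 rows had 0 to 2 higher and 4 to 11 lower in the AngioTag IP (4 without IP sample 3, 5 without input sample 1 or 3), 0 to 1 higher and 0 to 4 lower in FACS sorted (0 lower without sorted sample 1, 1 without any 1 of the FACS total samples, 2 without sorted sample 2), and 0 to 1 higher and 1 to 3 lower for AngioTag minus RiboTag (1 lower without AngioTag IP sample 3, AngioTag input sample 1 or 3, RiboTag IP sample 2, or RiboTag input sample 1 or 3). In the fit over all 18 libraries they had 0 higher and 8 lower in the AngioTag IP, 9 lower in FACS sorted and 0 lower for that difference, and with upper-quartile scaling 0 higher and 15 lower in the AngioTag IP. The 3 rows lower for AngioTag minus RiboTag are 9.4% of the 32, beside 3.53% lower over all genes. With 1 library left out, calls lower over all genes ran from 695 to 3424 in the AngioTag IP. They ran from 1563 to 2741 in FACS sorted and from 273 to 946 for AngioTag minus RiboTag. The fit over all 18 libraries called 1573, 3526 and 306 genes lower, and upper-quartile scaling 3078 in the AngioTag IP. Single rows were not recomputed.

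**Figure D4:**
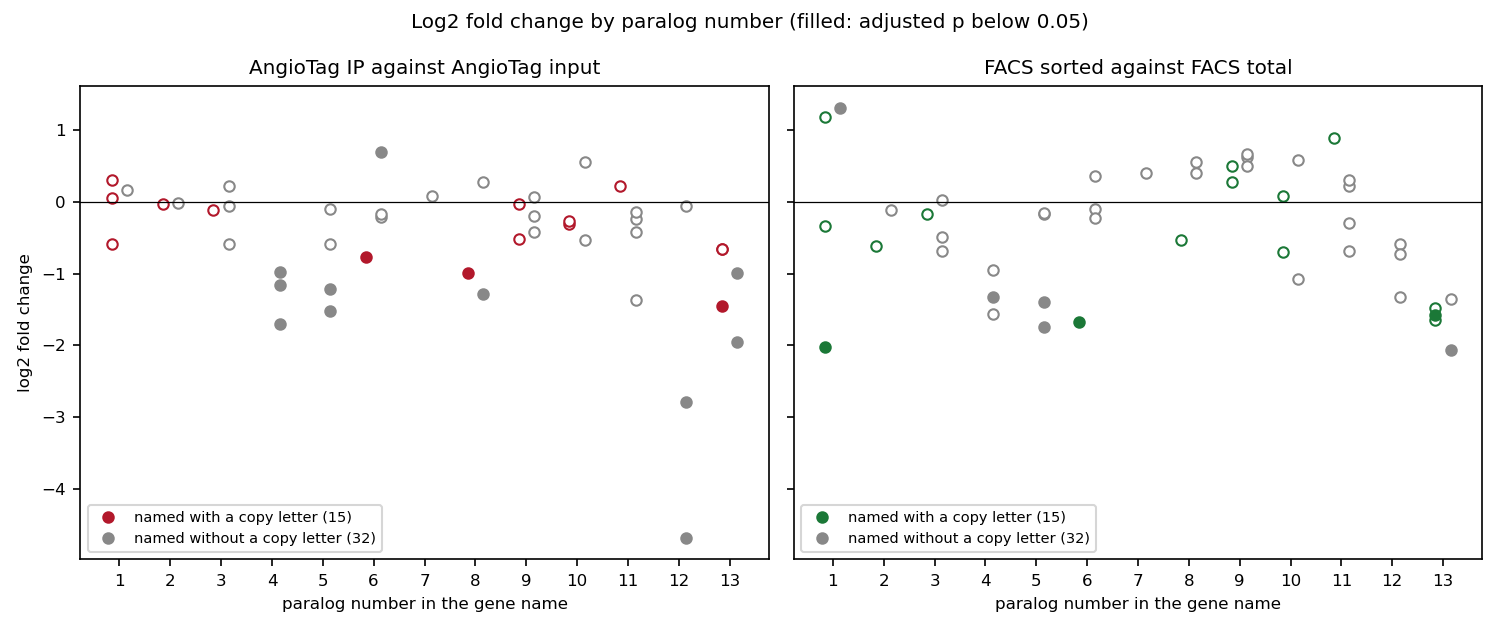
Log2 fold change (y axis) of Hox genes by the paralog number in their name (x axis), in the AngioTag IP against AngioTag input and in FACS sorted against FACS total. Coloured points are the 15 members and grey points the 32 rows without a copy letter, filled where the edgeR adjusted p was below 0.05. The 3 members with number 13 and the 3 grey points with number 4 lie below 0 in both panels.

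Partners and regulators of the Hox genes were counted from 4 lists. Beside these counts, 12.1% of all genes were higher and 11.9% lower in the AngioTag IP. In FACS sorted the shares were 13.9% and 14.8%. Of the Pbx and Meis cofactors, 0 of 7 were higher and 1 was lower in the AngioTag IP than in AngioTag input (edgeR), namely meis2b (-1.05 ± 0.26). In FACS sorted 0 of 9 were higher than in FACS total and 2 were lower, meis2b (-1.96 ± 0.39) and meis3 (-1.73 ± 0.35). Of the upstream regulators, 1 of 13 was higher and 3 were lower in the AngioTag IP. CYP26B1, which degrades retinoic acid, rose by a log2 fold change of 0.83 ± 0.17, while ALDH1A2, which makes it (-1.44 ± 0.26), and the receptor genes rxrbb (-2.31 ± 0.45) and rarab (-0.80 ± 0.17) fell. In FACS sorted 0 of 14 were higher and 4 were lower, among them ALDH1A2 (-2.08 ± 0.28), the tailbud signal WNT3A (-2.35 ± 0.50) and gdf11 (-1.92 ± 0.41), which in mouse sets the trunk to tail transition. ALDH1A2 also gave the 1 call of this list in the difference AngioTag minus RiboTag (-2.05 ± 0.34, edgeR adjusted p = 0.00200). That difference called 4.46% of all genes higher and 3.53% lower.

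Of the chromatin regulators, 1 of 13 was higher and 0 were lower in the AngioTag IP, the Trithorax gene kmt2a (0.63 ± 0.19). In FACS sorted 0 of 13 were higher and 2 were lower, among them the Polycomb gene cbx2 (-1.36 ± 0.25). The 2 lower are near the share of all genes called lower there, 14.8%. Of the other homeobox genes and genes beside the clusters, 0 of 14 were higher and 5 were lower in the AngioTag IP, led by mnx2b (-3.65 ± 0.98), mnx2a (-3.15 ± 0.77) and EVX1 (-2.89 ± 0.72), which are genes of spinal cord neurons. In FACS sorted 1 of 13 was higher, snx10b (2.88 ± 0.47), and 7 were lower, led by mnx2a (-3.06 ± 0.51), GSX2 (-2.68 ± 0.66) and EVX2 (-2.28 ± 0.48). Between RiboTag IP and RiboTag input, and between the inputs, none of the genes in these 4 lists passed the edgeR test in either direction. Those comparisons called 0.700% and 0.818% of all genes higher, and 0.496% and 0.845% lower. At an unadjusted p below 0.05 the numbers over the 4 lists were 6 higher and 3 lower in the RiboTag IP, and 3 higher and 6 lower in AngioTag input. In FACS total against AngioTag input, 7 of 13 chromatin regulators were higher and 2 were lower, and 6 of 14 upstream regulators were higher and 1 was lower. Over all genes 25.2% were higher and 21.2% lower in that comparison. Human-style symbols are those of the name table.

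Markers of cell types that express Hox genes moved in the same comparisons. The shares of all genes called are 12.1% higher and 11.9% lower in the AngioTag IP, and 13.9% and 14.8% in FACS sorted. In the AngioTag IP 1 of 14 neural markers was higher and 7 were lower, and their summed level was 1495, 1356 and 1228 CPM in the AngioTag IP, against 1548, 1492 and 1502 in AngioTag input. Of 6 tailbud and notochord markers 0 were higher and 3 were lower, with sums of 152, 184 and 139.9 CPM in the AngioTag IP, against 366, 371 and 396 in AngioTag input. Of 10 muscle and somite markers 3 were higher and 5 were lower, with sums of 15733, 17024 and 18379.6 CPM in the AngioTag IP, against 10549, 14483 and 15634 in AngioTag input. In FACS sorted 0 of 14 neural markers were higher and 11 were lower, with sums of 489.8, 503 and 293 CPM in FACS sorted, against 1165, 1436 and 863 in FACS total. Of the tailbud and notochord markers 0 of 6 were higher and 2 were lower, with sums of 85.3, 172 and 54.8 CPM in FACS sorted, against 279.9, 272 and 349 in FACS total. Of the muscle and somite markers 0 of 10 were higher and 9 were lower, with sums of 361, 377 and 429 CPM in FACS sorted, against 2171, 1345 and 4271 in FACS total. None of these markers was at 0 in any group. Of the blood markers, 5 of 5 myeloid markers were higher in each view, but only 2 of 7 erythroid markers were. Erythroid sums were 7270, 2399 and 5134 CPM in the AngioTag IP, against 2496, 1528 and 1651 in AngioTag input. They were 5069, 4380.5 and 21921 CPM in FACS sorted, against 3026, 1677 and 4627 in FACS total. The erythroid sums overlapped in both pairs. Of the remaining lists, the AngioTag IP had 0 of 5 neural crest and pigment markers higher and 5 lower, 2 of 5 pectoral fin and lateral plate markers higher and 1 lower, 0 of 4 pronephros markers higher and 1 lower, and 1 of 8 epidermis markers higher and 3 lower. In FACS sorted the same lists had 0 of 6 higher and 1 lower, 2 of 5 higher and 1 lower, 0 of 4 higher and 3 lower, and 1 of 8 higher and 5 lower. Neural crest and pigment markers summed to 66.96, 55.4 and 275 CPM in FACS sorted, against 282, 319 and 237 in FACS total, and pectoral fin and lateral plate markers to 35.8, 27.3 and 115 CPM in FACS sorted, against 11.7, 10.1 and 15.1 in FACS total. Sorted sample 3 was the highest library of FACS sorted in both. The part of these cell types in the Hox values was not tested.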

How the data were processed

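RNA-seq counts of 18 libraries in 6 groups of 3 were used. Per the labels' protocols, embryos were pooled at 24 hpf, the library kit keeps strand, and either poly(A) RNA was selected or ribosomal RNA removed (the choice is not stated per library). The deposited values are raw counts per gene; the submitters' processing notes name STAR 2.4.2a, RSEM 1.2.22, DESeq2 and the build GRCz10, with no roles. The authors' counts were used as deposited. Gene names came from the Ensembl name table, which gave a symbol for 22548 of 25193 genes.

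Each comparison was fitted with edgeR 4.0.16 (R 4.3.3, quasi-likelihood test, TMM scaling, filterByExpr with a minimum count of 10 and a minimum total of 15) on its own groups, with p-values adjusted by Benjamini-Hochberg over all genes tested and a threshold of 0.05. SE was taken from the fold change and the F statistic (absolute log2 value over root F). Levels are CPM with TMM factors over all 18 libraries. The Hox members and all lists were chosen with earlier results of these data known. Of the list entries, 9 of 14 cofactors, 13 of 26 upstream regulators, 13 of 22 chromatin regulators and 13 of 18 other genes matched a symbol. For comparisons of 1 group with another, library values are given for members past the threshold, or with the smallest p where fewer passed. The member with the highest level of each cluster, not corrected for gene length, has its library values printed for some or all groups. Library pairs within a group differed beyond sampling noise (chi-square over degrees of freedom 17.4 to 534.8), and each was entered as 1 replicate. This spread cannot show that the samples came from different pools, which is not stated.

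Same-numbered samples deviated together (r above 0.1 in every pair) for AngioTag IP with AngioTag input, RiboTag IP with RiboTag input and the IPs with each other. For these pairs the block fit is printed where it changes a call. In the AngioTag pair the pairing was weak for samples 2 and 3. Their r with the same-numbered input was 0.226 and 0.250, against 0.218 and 0.225 with the closest input of another number. Alternatives were DESeq2 1.42.0, scaling by RLE or by upper quartiles, no filter, a filter of 1 CPM in 3 libraries, all 18 libraries in 1 fit, the replicate block and leaving out each library. The scripts were tested on simulated data. No gene lengths of the build were used here, and no sequences are printed. Some genes counted in the lists are not reported here by name.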

Additional observations from a re-analysis of the deposited data

How the results depend on the processing

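Counts of Hox members called were recomputed under every alternative. With upper-quartile scaling 5 members were lower in the AngioTag IP (3 as reported), and with all 18 libraries in 1 fit 0 were. That fit gave 5 members lower (3 as reported) and 1 higher in FACS sorted, 3 higher (1 as reported) between the pull-downs and 3 lower (5 as reported) in FACS total against AngioTag input. Over all 20517 genes tested it called 1573 lower in the AngioTag IP (2130 as reported). In FACS sorted it called 3526 lower and 3037 higher (2868 and 2678). Between the pull-downs it called 3052 higher (1685), and in FACS total 2488 lower (4075). Upper-quartile scaling called 3078 genes lower in the AngioTag IP. DESeq2 and the stricter filter each called 4 members lower in the AngioTag IP and 4 in FACS sorted (3 as reported in each). Over all genes DESeq2 called 2745 and 3141 lower in these comparisons, and the stricter filter 1972 and 2663. DESeq2 called 1 member lower in the RiboTag IP, 1 higher in FACS sorted and 1 higher in each difference of enrichments (0 as reported in each). Over all genes it called 656 lower in the RiboTag IP (90 as reported) and 3371 higher in FACS sorted (2678). For AngioTag minus RiboTag it called 1373 higher (850), and for FACS minus AngioTag 2154 higher (1031). The stricter filter gave 1 lower in the RiboTag IP, and RLE scaling 1 higher for FACS minus AngioTag, where the calls over all genes were 100 lower and 1371 higher. The replicate block gave 4 lower in the RiboTag IP, 1 higher for AngioTag minus RiboTag and 1 lower for FACS minus AngioTag. The matching calls over all genes were 1268 lower, 1495 higher and 519 lower. Sample numbers did not pair the FACS samples, nor FACS total with AngioTag input; with that block hoxa13b (edgeR adjusted p = 0.0409), hoxb6b and hoxc1a were lower in FACS sorted, hoxd13a was not (0.0775), 7 members were lower in FACS total, and hoxc1a differed for FACS minus AngioTag (-1.40, 0.0411). The block moved no other member count by over 1.5 times. Over all genes it called 2609 lower in FACS sorted and 3484 lower in FACS total.

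Leaving out 1 library at a time, members called lower numbered 0 to 5 in the AngioTag IP, 0 to 1 in the RiboTag IP, 0 to 3 in FACS sorted, 0 to 1 between the pull-downs, 2 to 8 in FACS total and 0 to 1 for FACS minus AngioTag. Over all genes the calls lower in the same fits ran from 695 to 3424, 5 to 1014, 1563 to 2741, 370 to 1382, 2372 to 6002 and 99 to 736. Members called higher numbered 0 to 1 in FACS sorted, 0 to 2 between the pull-downs, 0 to 1 between the inputs, 0 to 1 for AngioTag minus RiboTag and 0 to 1 for FACS minus AngioTag. The calls higher over all genes ran from 1668 to 3108, 806 to 1764, 3 to 420, 553 to 1181 and 403 to 1251. Of the recomputed levels and fold changes of single members, 1809 stayed the same: levels within the spread between samples, or fold changes on the same side of the threshold. These include fold changes that changed sign without passing the test in either fit. Of the rest, 49 fold changes newly passed the threshold, 52 no longer passed it, and 10 levels moved by more than the spread between samples. No called value changed sign. The cause of these changes was not tested. In data simulated for the AngioTag pair (17552 genes) 27% of genes changed by 1 on the log2 scale were recovered and 95% of those changed by 2. For AngioTag minus RiboTag (18627 genes) the shares were 2% and 55%. Only 100 genes were changed at each size, whereas the AngioTag pair itself called 2170 genes higher and 2130 lower. An adjusted threshold is stricter where fewer genes change, so these shares cannot be carried over to the Hox genes. How often a Hox change of 2-fold goes uncalled in the data was not tested.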
